A study of Rattus norvegicus with 12 samples.

Results

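The proteasome is the large protease that degrades proteins tagged with ubiquitin, and this account follows the transcripts of its subunits in the kidney cortex of young and older diabetic rats. The genes were taken by name: every probe set whose array annotation names 1 gene with a symbol beginning Psma, Psmb, Psmc, Psmd, Psme, Psmf or Psmg, apart from Psmb8, Psmb9 and Psmb10. This gave 57 probe sets for 43 genes, out of 31099 probe sets on the array, of which 20832 name 1 gene. The 43 genes fall into 13 of the core (7 alpha and 6 beta subunits), 9 of the base (6 ATPases and 3 other subunits), 8 of the lid, 4 activators and inhibitors, and 9 assembly factors and others. Psmc3ip, a recombination factor, and Psme3ip1, a binding partner of an activator, share the symbols without being subunits and were kept by the rule. Another 6 probe sets name a proteasome gene together with other genes and were left out, so Psmb6 and Psme3 are not analysed here.

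Signals were measured on 12 one-colour arrays, 3 in each of 4 groups of male rats. Kidneys of diabetic rats were taken at 10 weeks of age after streptozocin, a toxin of insulin-producing beta cells, was given intravenously at 65 mg/kg at 4 weeks, or at 20 weeks of age after the same dose at 14 weeks. They received an insulin palmitate pellet 3 days later and ran blood glucose of 350 to 450 mg/dl for 6 weeks, per the labels. Nondiabetic rats of 10 and 20 weeks received vehicle and a palmitate pellet at the same ages. The label of 10-week diabetic replicate 1 names an insulin palmitate vehicle pellet, unlike those of the other diabetic samples. Whether that pellet held insulin is not clear, and the sample was kept as diabetic. A difference called one of diabetes covers diabetes, streptozocin and the pellets together.

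The 20S core is a barrel of stacked rings: alpha subunits form the gate at each end, and beta subunits line the chamber, where Psmb5, Psmb6 and Psmb7 carry the cutting sites. The 19S cap on the barrel has a base, whose ring of Psmc ATPases unfolds the substrate and threads it through the gate, and a lid, in which Psmd14 takes off the ubiquitin chain. Other activators, PA28 (Psme1 and Psme2) and PA200 (Psme4), can take the place of the cap, and Psmg and some Psmd proteins are chaperones that help the particle assemble without staying in it. Proteasome subunits are made in every cell, and when the particle is inhibited in cultured cells the transcription factor encoded by Nfe2l1 raises their genes together.

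The arrays held kidney cortex RNA by their markers. All 8 proximal tubule markers looked up were above the limit used for dim probe sets (a geometric mean signal of 70.9), none with a mean signal under 3654, while 0 of 4 skeletal muscle markers were. Some markers of other cell types moved with diabetes. Over both ages 2 of 5 podocyte markers, 1 of 4 endothelial and 1 of 4 collecting duct markers passed as lower in diabetic rats (limma). Passing as higher were 1 other collecting duct marker and 1 of the 5 leukocyte markers tested (of 7 on the array), in a comparison where 4.47% of all probe sets passed. Markers of proximal tubule, thick limb, distal tubule and fat had 0 calls in every comparison, but Pvalb (distal tubule), Cfd and Plin1 (fat) were too dim to be tested. At 10 weeks 1 collecting duct marker passed as higher (0.306% of all probe sets passed), and at 20 weeks 1 endothelial marker as lower (2.84% of all). The summed signal of the endothelial markers was 5297 to 6052 in diabetic and 6426 to 7799 in nondiabetic rats at 20 weeks, and that of the podocyte markers 4512 to 5030 in diabetic and 5526 to 6000 in nondiabetic rats. Other sums were higher in diabetic rats without overlap. At 20 weeks the distal tubule markers had 12613 to 14722 against 10849 to 11546, and the fat markers 2039 to 2253 against 1580 to 1807. At 10 weeks the collecting duct markers had 9665 to 12760 against 7719 to 9323. Such a sum follows mainly its brightest markers. Geometric mean signals of single markers ran from 6.30 to 11617 for distal tubule and from 22.7 to 1387 for fat. The part of these cell types in the proteasome values was not tested. For the Gapdh control probe sets, the signal at the 3' end over that at the 5' end, a measure of RNA quality, ranged from 1.44 to 1.5 in diabetic and 1.41 to 1.46 in nondiabetic rats at 10 weeks. At 20 weeks it ranged from 1.60 to 1.75 in diabetic and 1.42 to 2.09 in nondiabetic rats, with the highest value in nondiabetic replicate 1. The same ratio for beta-actin was 6.30 to 8.57 in diabetic and 6.75 to 7.47 in nondiabetic rats at 10 weeks. At 20 weeks the beta-actin ratio was 7.46 to 11.4 in diabetic and 6.87 to 11.2 in nondiabetic rats, highest in diabetic replicate 2. Results were also computed without 20-week nondiabetic replicate 1 and 10-week diabetic replicate 1, jointly. All values below are signals, or log2 differences of signals, relative to the other transcripts on the same array, and in cortex as a whole fewer cells of a type and less RNA per cell cannot be told apart.

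Proteasome transcripts were bright and even across the arrays. The brightest probe set of each gene had a geometric mean signal over the 12 arrays between 254 (Psmc3ip) and 8395 (Psmb4), with a median of 2075, against a median of 390 over all 18625 probe sets tested. Signals of different probe sets do not give the genes' relative amounts, since probes differ in efficiency. For 39 of the 43 genes the highest of the 12 arrays stood less than 1.5 times above the lowest, as it did for 27.9% of all probe sets tested. The median ratio of highest to lowest array was 1.32 for the proteasome genes and 1.79 for all. It was 1.13 for Psmc2, an ATPase of the base, and 1.13 for Psmb5, the chymotrypsin-like subunit, the steadiest pair. The most variable were Psmc3ip (1.82), Psmd11 (1.60) and Psmd13 (1.56). Brightness itself goes with a small spread on arrays of this kind, and its part in this evenness was not tested. These proteasome values use the brightest probe set of each gene, while those for all use every probe set tested. That choice raises the brightness of the proteasome genes, and its part in these gaps was not tested. Of the 57 probe sets, 53 passed the filter on dim signals and cover all 43 genes. The other 4 belong to Psmb5, Psmc4 and Psmd11 and had geometric mean signals between 5.99 and 45.2, while another probe set of each gene was bright.

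No proteasome gene differed between diabetic and nondiabetic rats, or between ages, past the threshold used here. That threshold was a limma adjusted p under 0.05 with Benjamini-Hochberg adjustment over all 18625 probe sets. At 10 weeks 0 of 53 probe sets passed, in a comparison where 0.306% of all did. At 20 weeks 0 of 53 passed, against 2.84% of all, and in the mean of both diabetes differences ("over both ages") 0 of 53 passed, against 4.47% of all. At an unadjusted p under 0.05 the counts were 3 of 53 at 10 weeks (10.9% of all probe sets), 6 of 53 at 20 weeks (16.8% of all) and 7 of 53 over both ages (17.9% of all). By the brightest probe set of each gene, the counts were 3 of 43 (6.98%), 4 of 43 (9.30%) and 7 of 43 (16.3%). The shares lay below those of all probe sets, by little for genes over both ages, and are a description only.

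The intervals limit how large a missed difference could be. Over both ages the 95% interval of the diabetes difference lay inside a 1.5-fold change in either direction for 51 of 53 probe sets, against 68.3% of all probe sets tested. The counts were 50 of 53 at 10 weeks (50.1% of all) and 48 of 53 at 20 weeks (47.0% of all). The widest interval at 10 weeks was that of the dim second probe set of Psme1, from -1.13 to 0.82. Taking the brightest probe set of each gene, the interval lay inside that range for 43 of 43 genes over both ages, 43 of 43 at 10 weeks and 42 of 43 at 20 weeks. The exception was Psmc3ip, whose interval at 20 weeks ran from -0.69 to 0.12 on the log2 scale. Smaller differences remain possible: the median standard error (SE) of a diabetes difference at 1 age was 0.092 over the 43 genes, about the size of the differences themselves. Over the 53 probe sets this median was 0.096, against 0.184 over all probe sets.

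**Figure D1:**
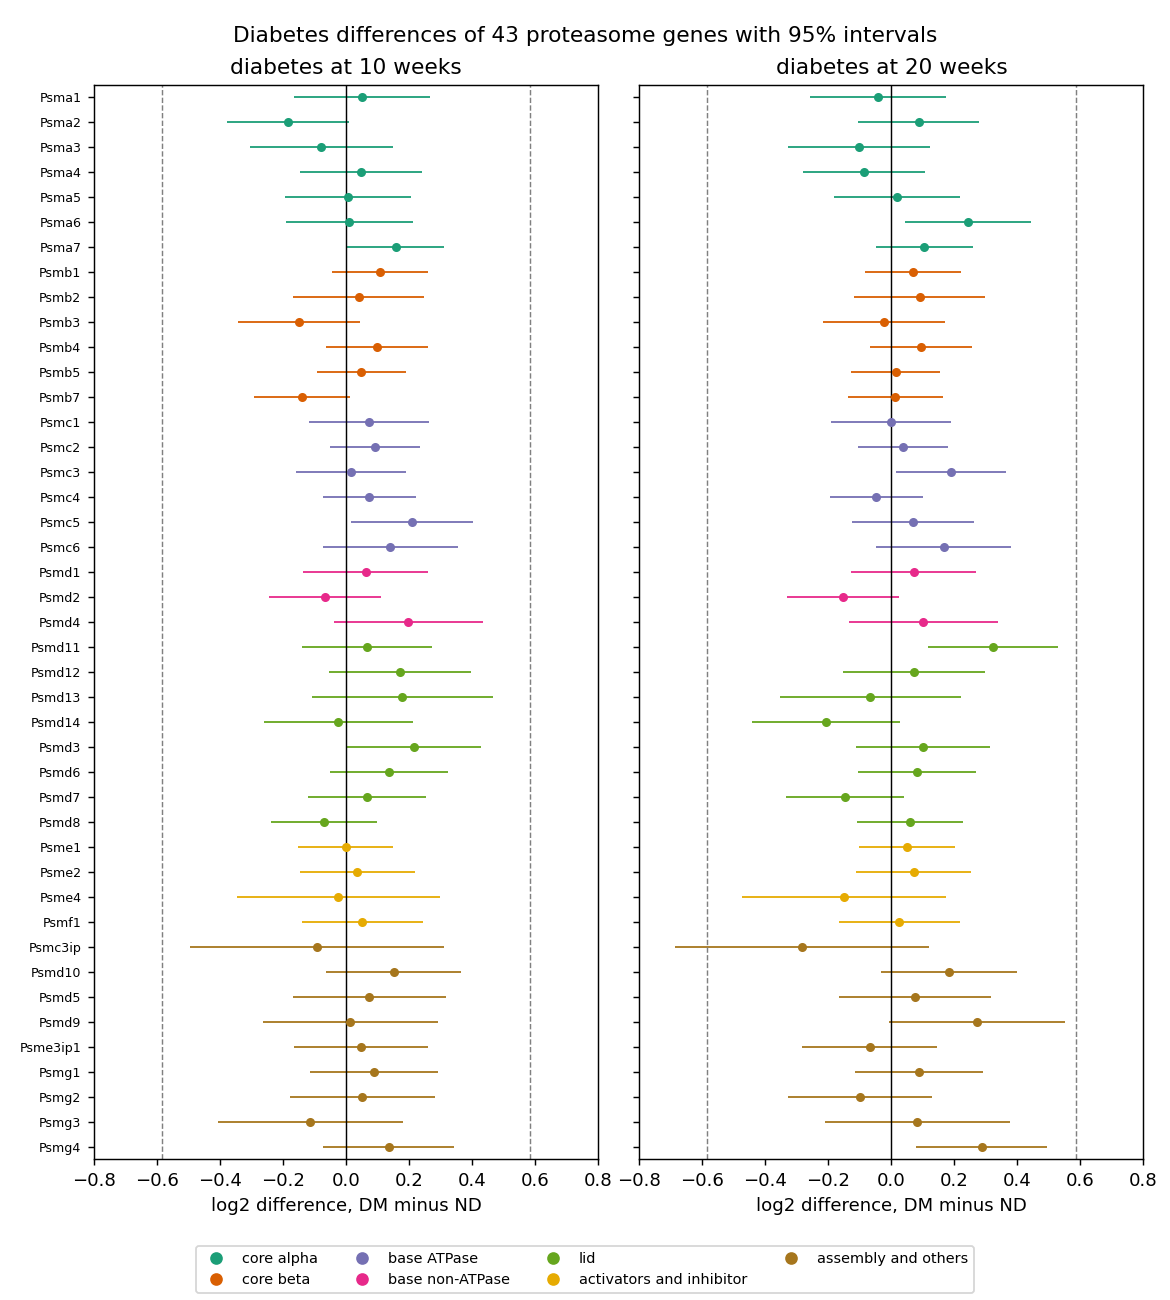
Log2 difference between diabetic (DM) and nondiabetic (ND) rats at 10 weeks (left) and 20 weeks (right) for the brightest probe set of each of 43 genes, with 95% intervals from the limma model and colours for the subunit classes. Dashed lines mark a 1.5-fold change in either direction; the interval of Psmc3ip at 20 weeks is the only one that crosses a line.

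The small differences were more often above 0 than below. At 10 weeks 38 of 53 probe sets had a positive diabetes difference, against 46.3% of all probe sets, and the median was 0.052 on the log2 scale, against -0.021 over all. At 20 weeks 34 of 53 were positive, against 49.3% of all, with a median of 0.068 and -0.0043 over all. Over both ages 34 of 53 were positive, against 47.6% of all, and the median was 0.039 for the proteasome probe sets and -0.010 for all. With arrays scaled to equal medians instead, the positive share was 84.9% at 10 weeks (65.0% of all), 56.6% at 20 weeks (44.1% of all), 75.5% over both ages (56.3% of all) and 79.2% in the interaction (67.3% of all). Under quantile normalization it was 67.9% at 10 weeks (51.0% of all), 64.2% at 20 weeks (48.0% of all) and 62.3% over both ages (49.9% of all). With the dimmest 60% of probe sets left out, it was 74.0% at 10 weeks (50.3% of all), 68.0% at 20 weeks (48.2% of all) and 68.0% over both ages (49.2% of all). These probe sets were measured on the same arrays and are not independent, so the counts are a description only.

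**Figure D2:**
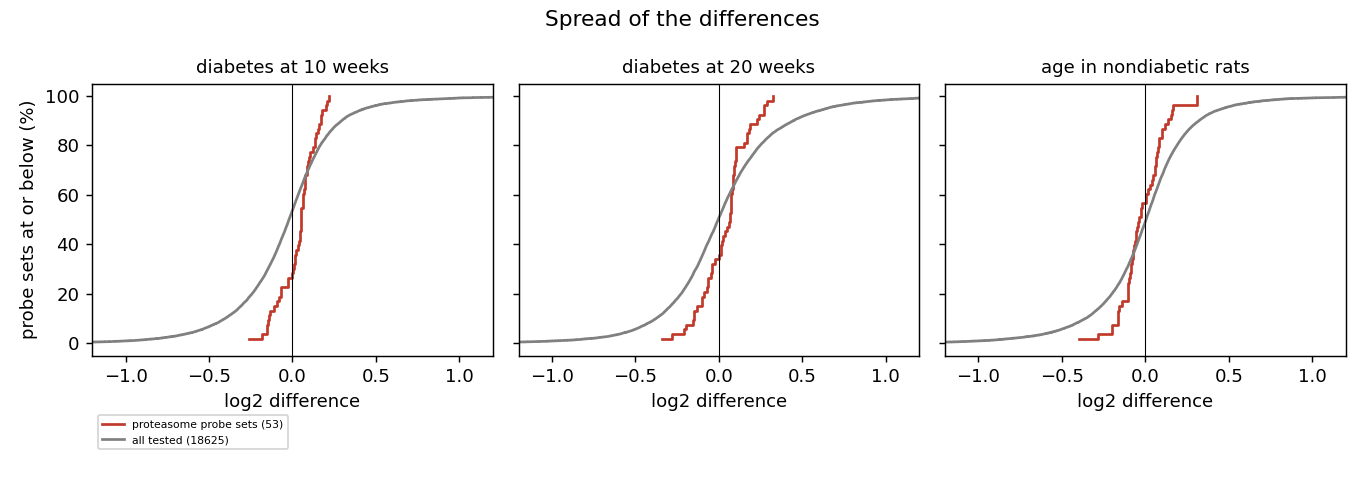
Cumulative share of probe sets (percent) by log2 difference for 53 proteasome probe sets (red) and all 18625 tested (grey), for diabetes at 10 weeks, diabetes at 20 weeks and age in nondiabetic rats. The horizontal axis is cropped, which leaves out some of all probe sets but no proteasome probe set; the red curves are steeper, and in both diabetes panels they cross the middle of the vertical scale slightly to the right of 0.

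Promoters were searched because Nfe2l1 binds an element of the form TGANNNNGC, where N is any base. RefSeq promoters of the GRCr8 build (250 bases before to 50 after the gene's start) were available for 39 of the 43 genes, and 21 of these (53.8%) held the element on either strand, as did 40.4% of 27457 promoters of all genes. CCAAT, the element of the factor NF-Y, was in 20 of 39 (51.3%) and in 37.7% of all. The 21 genes with the Nfe2l1 element had median diabetes differences of 0.048 at 10 weeks, 0.019 at 20 weeks and 0.031 over both ages. For the 18 genes without it these medians were 0.052, 0.077 and 0.046. A link between the Nfe2l1 element and the differences was not tested. The 250 bases before the start are shown for the 3 genes with the smallest p over both ages that hold the element there, a chaperone, a base subunit and a lid subunit, with the element in capitals. For this choice a gene's p was the smallest of its probe sets, which for Psmd7 is that of the dimmer one. All 3 matches read as TGANNNNGC on the opposite strand.
Psmg4, chr17:30923374-30923623, minus strand: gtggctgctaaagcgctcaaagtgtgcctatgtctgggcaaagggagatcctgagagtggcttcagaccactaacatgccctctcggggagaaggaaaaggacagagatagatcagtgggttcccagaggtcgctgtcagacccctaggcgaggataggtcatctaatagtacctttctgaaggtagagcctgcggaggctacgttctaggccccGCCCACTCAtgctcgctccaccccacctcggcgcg
Psmd2, chr11:93763389-93763638, minus strand: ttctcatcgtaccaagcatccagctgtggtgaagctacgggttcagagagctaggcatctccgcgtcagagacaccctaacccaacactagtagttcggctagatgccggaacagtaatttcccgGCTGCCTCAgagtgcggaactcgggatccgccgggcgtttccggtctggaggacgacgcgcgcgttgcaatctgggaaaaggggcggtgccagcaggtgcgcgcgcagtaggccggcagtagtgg
Psmd7, chr19:52411317-52411566, minus strand: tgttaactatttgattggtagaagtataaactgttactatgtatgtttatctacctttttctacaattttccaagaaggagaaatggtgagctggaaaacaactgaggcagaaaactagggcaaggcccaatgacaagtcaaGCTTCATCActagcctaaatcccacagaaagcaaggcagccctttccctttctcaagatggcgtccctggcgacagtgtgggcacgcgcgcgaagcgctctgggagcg

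Core genes had diabetes differences on both sides of 0, from -0.18 (Psma2) to 0.16 (Psma7) at 10 weeks and from -0.10 to 0.24 (Psma6) at 20 weeks. The median over 13 core genes was 0.041 at 10 weeks, 0.019 at 20 weeks and 0.012 over both ages, though the sign turned at 10 weeks under quantile normalization (-0.0069) and at 20 weeks under median scaling (-0.014). Over both ages it turned without 10-week diabetic replicate 1 and 20-week nondiabetic replicate 1 together (-0.039) and without single arrays (down to -0.011). Of the 13 genes, 0 passed in each of these comparisons. Psma7, an alpha subunit, had the smallest p of the core over both ages. Its signal was 5760, 6018 and 6071 in diabetic rats and 5077, 5679 and 5246 in nondiabetic rats at 10 weeks. At 20 weeks it was 5267, 5341 and 5747 in diabetic rats and 4914, 5356 and 4944 in nondiabetic rats. The diabetic arrays lay above all nondiabetic arrays at 10 weeks and overlapped with them at 20 weeks, and the difference over both ages was 0.13 ± 0.050 (SE; adjusted p = 0.183).

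Psma6, another alpha subunit, had 8826, 8941 and 9472 in diabetic rats at 20 weeks, above the 7730, 7199 and 8101 of nondiabetic rats. At 10 weeks it had 7942, 8587 and 8113 in diabetic rats, inside the range of 7348, 9521 and 7734 in nondiabetic rats. Its differences were 0.01 ± 0.093 at 10 weeks and 0.24 ± 0.093 at 20 weeks (adjusted p = 0.204). Psma2, also of the alpha ring, leaned the other way at 10 weeks: 4003, 3993 and 4420 in diabetic rats lay below 4682, 4888 and 4525 in nondiabetic rats (-0.18 ± 0.089, adjusted p = 0.486). At 20 weeks its diabetic signals of 4166, 3905 and 4251 overlapped with the nondiabetic 3417, 3903 and 4334.

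Of the cutting subunits, Psmb5 and Psmb7 were measured. Psmb5, the chymotrypsin-like subunit and the target of proteasome inhibitor drugs, averaged 6159 ± 93.2 in diabetic and 5963 ± 391 in nondiabetic rats at 10 weeks (SD, n = 3), and 6042 ± 27.3 in diabetic and 5987 ± 171 in nondiabetic rats at 20 weeks. Its diabetes difference over both ages was 0.03, with a 95% interval from -0.07 to 0.13. Psmb7, the trypsin-like subunit, gave 3333, 3054 and 3228 in diabetic rats at 10 weeks, below the 3726, 3432 and 3439 of nondiabetic rats (-0.14 ± 0.070, adjusted p = 0.506), and 0.01 ± 0.070 at 20 weeks. Among the structural beta subunits, Psmb4 had a difference over both ages of 0.10 ± 0.053 and Psmb1 of 0.09 ± 0.050 (adjusted p = 0.381 and 0.392). Psmb3 had 3464, 3640 and 3028 in diabetic rats at 10 weeks, again below its nondiabetic 3807, 3755 and 3645. Over the 13 core genes, 1 had all diabetic arrays above the nondiabetic at 10 weeks and 3 had all below, and at 20 weeks the counts were 1 and 0. Such non-overlap was found at 10 weeks in 7.47% of all probe sets for higher and 9.52% for lower signals, and at 20 weeks in 10.1% and 10.9%.

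**Figure D3:**
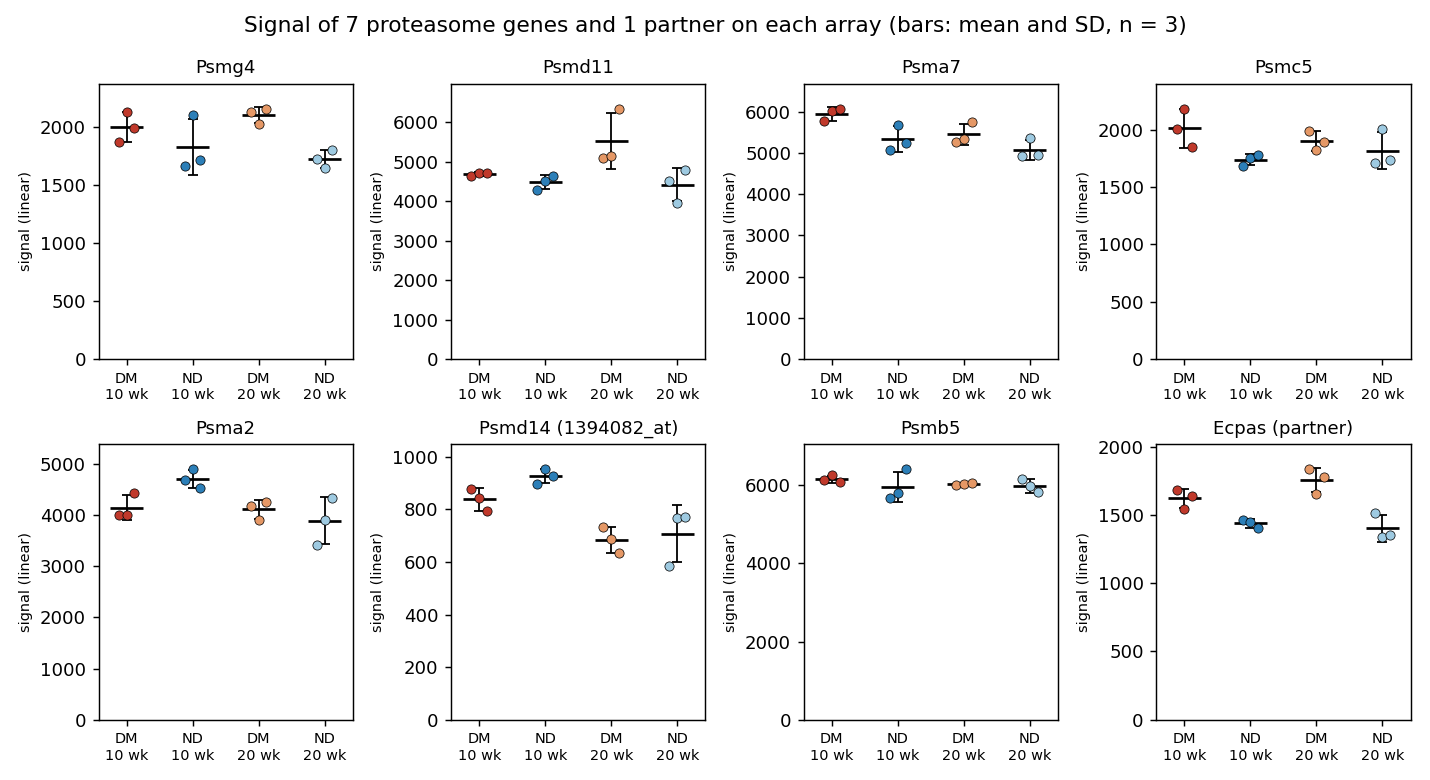
Signal (linear scale, from 0) on each array of 7 proteasome genes and of Ecpas, a proteasome partner, in diabetic (DM) and nondiabetic (ND) rats at 10 and 20 weeks; points are arrays, long bars means and error bars SD (n = 3). Psmd11, Psmg4 and Ecpas have all diabetic arrays above the nondiabetic arrays at 20 weeks, and Psmb5 is level across the groups.

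In the base, 8 of 9 genes had a positive diabetes difference at 10 weeks and 6 of 9 at 20 weeks, with medians of 0.075 and 0.068; 0 of 9 passed at either age. The 20-week median was 0.034 to 0.037 without nondiabetic replicate 1 or 3 or diabetic replicate 1 of that age. Psmc5, one of the ATPases, was the member with the smallest p at 10 weeks. Its signal was 2008, 2185 and 1847 in diabetic rats, above all of 1685, 1752 and 1777 in nondiabetic rats, and the difference was 0.21 ± 0.089 (adjusted p = 0.419). At 20 weeks the groups overlapped, with 1993, 1824 and 1891 in diabetic and 1714, 2007 and 1735 in nondiabetic rats (0.07 ± 0.089). Psmc2, also an ATPase, had 6850, 7157 and 6908 in diabetic and 6386, 6467 and 6765 in nondiabetic rats at 10 weeks, a separation without overlap that amounts to only 0.09 ± 0.066.

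Psmc6, an ATPase measured by 3 probe sets, gave positive differences with each of them. Over both ages they were 0.15 ± 0.070, 0.15 ± 0.073 and 0.20 ± 0.092, with adjusted p between 0.271 and 0.329. Psmc3 had 2941, 2598 and 2723 in diabetic rats at 20 weeks, above 2567, 2458 and 2231 in nondiabetic rats (0.19 ± 0.081, adjusted p = 0.260). Psmd4, a receptor for ubiquitin chains, had a difference over both ages of 0.15 ± 0.077, and Psmd2, a large scaffold of the base, of -0.11 ± 0.058 (adjusted p = 0.341 and 0.353). Psmd2 was thus the 1 base gene of 9 below 0 over both ages: its signal was 3861, 4110 and 3672 in diabetic rats at 20 weeks, against 4448, 4450 and 4050 in nondiabetic rats.

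In the lid the medians over 8 genes were 0.102 at 10 weeks, 0.066 at 20 weeks and 0.083 over both ages, and 0 of 8 passed. Leaving out single arrays gave 0.056 to 0.14 at 10 weeks, 0.033 to 0.095 at 20 weeks and 0.047 to 0.10 over both ages. Psmd11, a lid subunit that in human stem cells raises proteasome activity, came nearest to the threshold of all proteasome genes at 20 weeks. Its brightest probe set read 5090, 5153 and 6341 in diabetic rats, above 4499, 3954 and 4776 in nondiabetic rats. The difference was 0.32 ± 0.095 (adjusted p = 0.0963), with an interval from 0.12 to 0.53. At 10 weeks the signals were 4642, 4709 and 4716 in diabetic and 4282, 4512 and 4645 in nondiabetic rats, close together and overlapping (0.07 ± 0.095). A second probe set of Psmd11 gave 0.17 ± 0.080 at 20 weeks and did not pass (adjusted p = 0.313).

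Psmd3, a scaffold of the lid, had 1120, 1285 and 1256 in diabetic rats at 10 weeks, against 1036, 968 and 1151 in nondiabetic rats, which overlap (0.22 ± 0.098, adjusted p = 0.453). Psmd14, the deubiquitinase, had negative differences over both ages with each of its 3 probe sets, at -0.12 ± 0.077, -0.09 ± 0.083 and -0.23 ± 0.204. The last of them is dim, with a geometric mean signal of 110. Psmd7, the partner of Psmd14, had -0.04 ± 0.061 over both ages with its brightest probe set and 0.14 ± 0.079 with the other (adjusted p = 0.801 and 0.403), so its direction was not settled. For the genes with more than 1 probe set tested, the signs of all probe sets were alike in 6 of 7 at 10 weeks and in 3 of 7 at 20 weeks.

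Among the activators and the inhibitor, Psme1, Psme2 and Psmf1 had differences close to 0 over both ages by the brightest probe set of each. Psme1 and Psme2, the subunits of PA28, had 0.02 ± 0.050 and 0.05 ± 0.060 over both ages with their brightest probe sets (adjusted p = 0.865 and 0.713), and Psmf1, which encodes the inhibitor PI31, had 0.04 ± 0.063. A second probe set of Psme1, the dimmest tested at a geometric mean signal of 72.2, gave -0.11 ± 0.317 over both ages. Psme4, which encodes PA200, was uneven between probe sets. At 20 weeks one of its 3 probe sets read 504, 699 and 656 in diabetic rats, below 702, 930 and 720 in nondiabetic rats (-0.34 ± 0.157, adjusted p = 0.297). The brightest gave -0.15 ± 0.149 and the remaining one 0.15 ± 0.123, so no common direction was seen.

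The assembly factors held the smallest p over both ages. Psmg4, a chaperone of the alpha ring, had 2132, 2025 and 2159 in diabetic rats at 20 weeks, above 1730, 1648 and 1802 in nondiabetic rats. At 10 weeks it had 1876, 2131 and 1995 in diabetic rats, overlapping with 1664, 2106 and 1716 in nondiabetic rats. The nondiabetic array at 2106, replicate 2 of 10 weeks, stood apart from the other nondiabetic arrays. The difference was 0.14 ± 0.096 at 10 weeks, 0.29 ± 0.096 at 20 weeks (adjusted p = 0.147) and 0.21 ± 0.068 over both ages (adjusted p = 0.110). Without that array the difference over both ages was 0.26 ± 0.059 with adjusted p = 0.0366, the only proteasome call in any comparison under the alternatives tried. Psmd10, also known as gankyrin, a chaperone of the base, had 1273, 1341 and 1265 in diabetic and 1036, 1298 and 1174 in nondiabetic rats at 10 weeks, and 1196, 1360 and 1366 in diabetic and 1092, 1136 and 1223 in nondiabetic rats at 20 weeks. The groups overlapped at both ages, and the difference was 0.17 ± 0.070 over both ages (adjusted p = 0.232). The other chaperones of the core, Psmg1, Psmg2 and Psmg3, had 0.09 ± 0.066, -0.02 ± 0.075 and -0.02 ± 0.096.

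Whether diabetes acted differently before and after puberty was asked with the interaction, in which the 20-week diabetes difference is subtracted from the 10-week one. None of the 53 probe sets passed (adjusted p of 0.629 or more, limma), in a comparison where 0.0% of all 18625 probe sets passed, and 0 of 53 had an unadjusted p under 0.05, against 7.95% of all. The interaction was above 0 for 28 of 53, against 49.5% of all. The smallest p was that of Psma2 (-0.27 ± 0.126), followed by Psmd11 (-0.26 ± 0.134). For both, the 95% interval was wide, from -0.54 to 0.0024 for Psma2 and from -0.55 to 0.034 for Psmd11. The interaction interval lay within a 1.5-fold change for 44 of 53 probe sets, against 30.7% of all probe sets. By the brightest probe set of each gene it did so for 39 of 43 genes.

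Age alone was compared in nondiabetic rats, 20 weeks minus 10 weeks. None of 53 proteasome probe sets passed, as was so for 0.0% of all 18625 (limma); 5 of 53 had an unadjusted p under 0.05, against 8.61% of all. The age difference was above 0 for 23 of 53, against 51.0% of all. Core genes were on the lower side at 20 weeks, with 9 of 13 below 0 and a median of -0.083, whereas base and lid had medians of 0.060 and 0.075. The difference between subcomplexes was not tested, and the medians of core, base and lid were not stable in size. The core median stayed below 0 without single arrays, but was -0.028 without 10-week replicate 2 and -0.053 without 20-week replicate 1. The lid median was -0.0030 with a gene's probe sets averaged and 0.017 without 10-week replicate 2, and the base median 2.5e-04 without 20-week replicate 2. Over all probe sets tested the median was 0.0051. All nondiabetic arrays of 20 weeks lay below all of 10 weeks for 4 of the 13 core genes, Psma2, Psma5, Psmb1 and Psmb7, and above for 0; in all probe sets such separation occurred in 5.7% for lower and 6.36% for higher signals. Psma2 read 3417, 3903 and 4334 at 20 weeks and 4682, 4888 and 4525 at 10 weeks (-0.28 ± 0.089, adjusted p = 0.490). Psmb1 read 5470, 5480 and 5204 at 20 weeks and 6047, 5660 and 6372 at 10 weeks (-0.16 ± 0.070, adjusted p = 0.562). One probe set of Psmd14 had the smallest p, with 583, 768 and 769 at 20 weeks and 898, 951 and 925 at 10 weeks (-0.40 ± 0.118, adjusted p = 0.482), but the brightest of that gene gave 0.08 ± 0.109. Psmd13 of the lid had 1690, 1491 and 1242 at 20 weeks, above 1229, 1083 and 1228 at 10 weeks (0.31 ± 0.133, adjusted p = 0.560). The Gapdh ratio given above was higher on 2 of the 3 nondiabetic arrays of 20 weeks than on any of 10 weeks, with that ratio as a covariate the core median was -0.063, against 0.090 and 0.082 for base and lid.

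The subcomplexes can also be read array by array, as the mean over genes of the log2 signal minus each gene's 12-array mean. For the core, this value was 0.017, 0.046 and 0.020 in diabetic rats and -0.0038, 0.027 and 0.056 in nondiabetic rats at 10 weeks. At 20 weeks it was -0.037, -0.011 and 0.022 in diabetic rats and -0.086, -0.016 and -0.034 in nondiabetic rats. Diabetic and nondiabetic arrays overlapped at both ages, and the lowest core value was that of 20-week nondiabetic replicate 1, the array with the highest Gapdh ratio. For the base the values were 0.050, 0.064 and -0.037 in diabetic rats, all above -0.051, -0.101 and -0.038 in nondiabetic rats at 10 weeks, though the closest pair is nearly level. For the lid at 10 weeks they were 0.067, 0.0042 and 0.012 in diabetic rats and -0.076, -0.135 and 0.015 in nondiabetic rats, so 1 nondiabetic array lay inside the diabetic range. The array values of core, base and lid lay between -0.135 and 0.097 on the log2 scale.

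**Figure D4:**
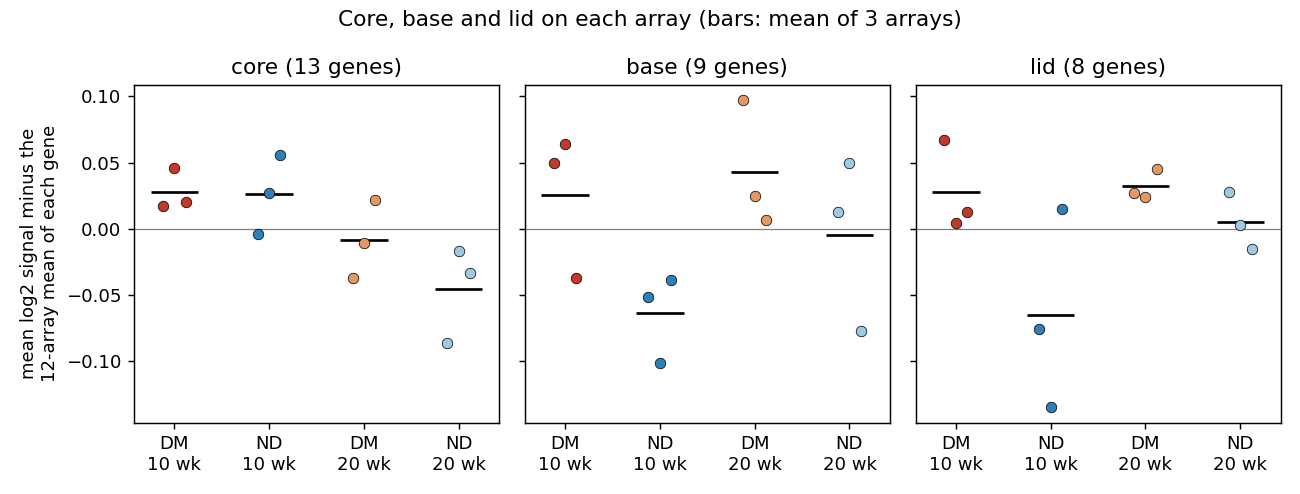
Mean over genes of the log2 signal minus the gene's mean on all 12 arrays, for core (13 genes), base (9) and lid (8), on each array of diabetic (DM) and nondiabetic (ND) rats; bars are means of 3 arrays. The groups overlap in each panel at 20 weeks, and the lowest point is a nondiabetic array of 10 weeks in the lid panel, at -0.135.

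Genes that work with the proteasome were read from a separate list of 35, of which 29 had a tested probe set, 43 probe sets in all. Over both ages 1 probe set passed, higher in diabetic rats, and 0 passed lower; 4.47% of all probe sets passed in that comparison. It belonged to Ecpas, which encodes ECM29, an adaptor that clamps core and cap together. Its signal was 1682, 1546 and 1639 in diabetic rats, above 1465, 1452 and 1402 in nondiabetic rats at 10 weeks. At 20 weeks it was 1833, 1655 and 1778 in diabetic rats, above 1514, 1336 and 1354 in nondiabetic rats. The rise over both ages was 0.25 ± 0.057 (adjusted p = 0.0292), while the 3 other tested probe sets of Ecpas, all much dimmer, gave -0.02 ± 0.101, 0.18 ± 0.239 and -0.08 ± 0.266 and did not pass. The call was kept in 11 and lost in 11 of 22 alternatives, where adjusted p ranged from 0.0199 to 0.0715 and the difference from 0.23 to 0.29. It was lost without any single array, at adjusted p from 0.0546 to 0.0715, other than replicate 2 of the diabetic rats at either age (0.0434 and 0.0355) and nondiabetic replicate 1 of 20 weeks (0.0208), which kept it.

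No partner passed at 10 weeks, at 20 weeks, for age or in the interaction (limma), with unadjusted p under 0.05 for 3, 5, 4 and 1 of 43 probe sets, in comparisons where 10.9%, 16.8%, 8.61% and 7.95% of all probe sets had one. Zfand5, whose product stimulates the proteasome in wasting muscle of mice, had 2174, 2374 and 2364 in diabetic and 3032, 2786 and 2442 in nondiabetic rats at 10 weeks. At 20 weeks it had 1896, 1713 and 2149 in diabetic and 2277, 2222 and 2506 in nondiabetic rats. The diabetic arrays lay below the nondiabetic arrays at both ages, and the difference over both ages was -0.27 ± 0.073 (adjusted p = 0.0583). The 3 probe sets of Nfe2l1 gave 0.34 ± 0.151, 0.34 ± 0.225 and 0.30 ± 0.135 at 10 weeks and -0.08 ± 0.151, 0.09 ± 0.225 and 0.06 ± 0.135 at 20 weeks, none past the threshold. With each of them all diabetic arrays lay above the nondiabetic arrays at 10 weeks, as in 7.47% of all probe sets. For the second the closest arrays were nearly level (196.2 and 196.0). At 20 weeks the groups overlapped with each. Pomp, the chaperone of beta ring assembly, had 0.08 ± 0.050 over both ages (adjusted p = 0.456). The immunoproteasome subunits Psmb8, Psmb9 and Psmb10, which replace the standard cutting subunits in immune cells, had 0.15 ± 0.175, 0.20 ± 0.128 and 0.08 ± 0.136 over both ages, and none passed; their standard errors were larger than that of Psmb5, at 0.046.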

How the data were processed

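RNA of renal cortex in 12 samples was hybridised to 1 array type. The deposited values are linear signals (intensity) made with GCOS per the submitters' processing notes, with version, summary method and detection calls not given in the sources used here. The authors had scaled each array, since the mean after trimming 2% at each end was 500.2 on every array. From these values, signals under 1 (424 values) were set to 1, log2 was taken, 57 control probe sets and the dimmest 40% of the rest were left out, and 18625 were tested with limma 3.58.1 (R 4.3.3): 4 group means, eBayes with intensity trend, 8 residual degrees of freedom, two-sided, 5 comparisons. Replicates are separate samples by label with no stated link to animals or litters, although the design text speaks of littermates. The p-values thus describe variation among arrays that may be partly technical or shared within litters, and the number of arrays limits the precision. Gene names are those of the array annotation. Promoters are RefSeq's (GRCr8). The naming rule took members or partner genes with a call, the 2 members of each class and the 2 partners with the smallest p over both ages, the brightest and the dimmest member; other named genes were chosen after their values were seen. The genes and lists were chosen with earlier results of these data known.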

Additional observations from a re-analysis of the deposited data

How the results depend on the processing

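Calls among the 53 proteasome probe sets stayed at 0 in every comparison under 22 alternatives (scaling, dim filter, offset, variance, array weights, the Gapdh ratio as a covariate, arrays left out), except 1 over both ages, Psmg4, without 10-week nondiabetic replicate 2. Calls over all probe sets moved more: at 10 weeks 57 became 7 without the intensity trend, 10 without 10-week diabetic replicate 1 and 20-week nondiabetic replicate 1 together and 5 to 115 without single arrays; at 20 weeks 529 became 191, 331 and 194 to 520; over both ages 833 became 502, 490 and 525 to 823. With the replicate number as a replicate block they were 32, 431 and 728, and 0 for the members in each comparison. Same-numbered samples did not deviate together (median correlation 0.032, from -0.15 to 0.15 over 18 pairs), so the numbers were not taken as pairs.

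Medians of core, base and lid moved with scaling. Scaling on the median moved the median of all tested probe sets at 10 weeks to 0.089, against -0.021 as deposited, and the interaction to 0.14; core, base and lid became 0.15, 0.18 and 0.21 at 10 weeks and 0.15, 0.22 and 0.25 in the interaction, and core -0.014 at 20 weeks and 0.051 over both ages. Median scaling shifts every probe set alike and leaves the gap between the proteasome median and that of all probe sets as it was. Quantile normalization narrowed that gap at 10 weeks to 0.027, against 0.072 as deposited, and gave core -0.0069 at 10 weeks and -0.032 in the interaction. Without 10-week diabetic replicate 1 and 20-week nondiabetic replicate 1 together the interaction medians were 0.024 (base) and 0.045 (lid), core -0.053 for age and -0.039 over both ages. Averaging a gene's probe sets gave lid -0.0030 for age. Leaving out single arrays gave core ranges of -0.011 to 0.080 at 10 weeks, -0.0028 to 0.059 at 20 weeks, -0.031 to 0.038 in the interaction, -0.11 to -0.028 for age and -0.011 to 0.041 over both ages. Lid ranged from 0.056 to 0.14 at 10 weeks, 0.033 to 0.095 at 20 weeks, 0.047 to 0.10 over both ages, 0.066 to 0.17 in the interaction and 0.017 to 0.093 for age, and base from 0.056 to 0.10 at 10 weeks, 0.034 to 0.10 at 20 weeks, 0.048 to 0.10 over both ages, 0.030 to 0.12 in the interaction and 2.5e-04 to 0.092 for age. The direction of the core median is thus not settled for diabetes at either age or over both. The cause of these moves was not tested.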
